A study of Danio rerio with 4 samples.

Results

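gjc4b (ENSDARG00000007099, older name cx43.4) is a zebrafish connexin gene, and its row of the deposited table of unique molecular identifier (UMI) counts is described here in all 4 libraries, as 1 of 32266 gene rows. It was chosen by its level and its lower counts in the β-catCA libraries of this same comparison, so its levels and its difference between the groups are given as a description, without a test. The other 32 gap junction genes with a row, found by symbol (gja, gjb, gjc or gjd plus a number, or cx plus 2 digits), serve as background.

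The cells came from AB-strain embryos at 9 hours post fertilization (hpf), in gastrulation. One group held GFP-negative cells sorted from embryos mosaic for β-catCA, a constitutively active β-catenin, with 2 lots, and the other held GFP-negative cells sorted from embryos mosaic for GFP alone, also with 2 lots. Both groups therefore consist of cells sorted as free of the marker, and the labels describe no choice by distance to marked cells. The labels give no number of embryos or cells per lot. Each lot was made into 1 CEL-Seq2 library, which counts molecules at the 3′ end, so UMIs can be compared between genes without a correction for length. The libraries held 65098 and 8403 gene UMIs in β-catCA lots 1 and 2, and 61304 and 59260 in control lots 1 and 2. No label ties the lots to separate clutches, so p-values measure a spread between these lots that may be technical.

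Connexins are membrane proteins that assemble into pores. Pores of adjoining cells dock to form gap junctions, through which ions and small molecules pass from cell to cell. In zebrafish, the protein encoded by gjc4b is known from the formation of Kupffer's vesicle, the ciliated organ that sets left-right asymmetry. Its RNA is known to be widespread in the early embryo. UMI counts measure RNA and say nothing of channel protein or of coupling between cells.

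gjc4b supplied nearly all connexin RNA that these libraries detected. Of 1750 UMIs on the 33 gap junction genes, 1747 were on gjc4b, a share of 99.8% (95% exact binomial interval 99.5% to 99.97%, counting error only). Of the other 32 genes, 30 had 0 UMIs in all 4 libraries and 2 had any. The other 32 genes together had 0 and 0 UMIs in β-catCA lots 1 and 2, and 2 and 1 UMIs in control lots 1 and 2. The scarcity of their UMIs was thus shared by both groups.

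The 30 genes without a UMI included the closest relatives by name, gjc4a.1 and gjc4a.2. They also included GJA1, which encodes connexin 43, the connexin of heart and bone cells, both rows named GJA5, a connexin of the heart and vessels, and both rows named GJB1, a connexin of liver and of myelinating cells in mammals. A count of 0 in 194065 gene UMIs allows up to 3 UMIs, a share of 0.00155%. Against that limit, taken over all 4 libraries, the counted gjc4b UMIs were 582-fold higher. The limit covers counting error only. A gene whose 3′ end is missing from the annotation used for counting would also read 0, so the fold is no bound on the RNA itself. Over all 32266 gene rows, 8640 had a UMI. The 3 remaining connexin UMIs lay on gja9b, with 1 UMI in each control lot, and on 1 of the rows named GJD2 (ENSDARG00000070781), the connexin of electrical synapses, with 1 UMI in control lot 1. By family, the 33 rows split into 17 gja, 8 gjb, 4 gjc and 4 gjd genes, so gjc4b was the single gene of all 4 families seen at more than 2 UMIs. In the symbol table some zebrafish genes carry human-style names, written in capitals, and 4 of the rows repeat a symbol that another row has. One further connexin symbol of that table, gjd1a, matched no row and was not analysed here.

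In the controls gjc4b was among the most abundant RNAs of the cell. It had 270 UMIs in β-catCA lot 1 and 33 in β-catCA lot 2, against 805 UMIs in control lot 1 and 639 in control lot 2. These counts were 0.415% of all gene UMIs in β-catCA lot 1 (95% exact binomial interval 0.367% to 0.467%) and 0.393% in β-catCA lot 2 (0.270% to 0.551%). In control lot 1 the share was 1.31% (1.22% to 1.41%), and in control lot 2 it was 1.08% (0.997% to 1.16%). Put another way, 1 gene UMI in 241 was gjc4b in β-catCA lot 1 and 1 in 255 in β-catCA lot 2, against 1 in 76.2 in control lot 1 and 1 in 92.7 in control lot 2. Both β-catCA lots lay below both control lots, and no interval of one group touched an interval of the other. The choice of this gene largely fixed that separation, and the intervals cover counting error only, not the spread between lots.

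**Figure D1:**
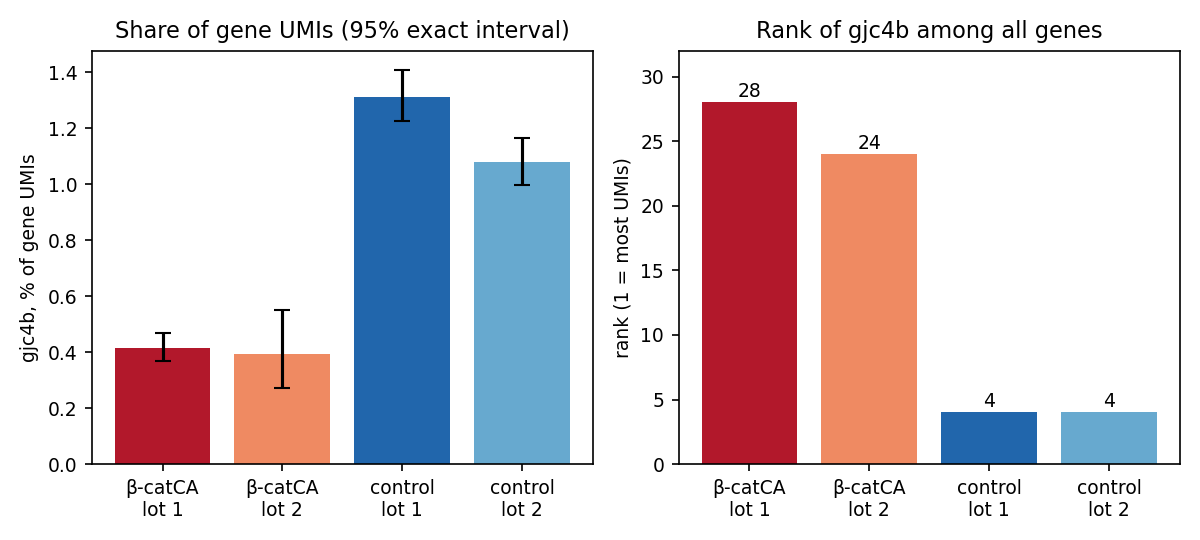
Left, gjc4b as percent of all gene UMIs in each of the 4 libraries, with 95% exact binomial intervals that cover counting error only; right, the rank of gjc4b among all genes of the library, where 1 is the gene with most UMIs. The β-catCA lots stand at 0.415% and 0.393% with ranks 28 and 24, and the control lots at 1.31% and 1.08% with rank 4 in each.

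Within the groups the order of the levels was not equally sharp. The intervals of the 2 β-catCA lots overlapped, so their order was not resolved. The intervals of the 2 control lots did not overlap, so the control lots differed by more than counting error. On the scale of counts per 1000000 gene UMIs (CPM), scaled with edgeR's trimmed-mean (TMM) factors, gjc4b stood at 4117 and 4108 CPM in β-catCA lots 1 and 2, and at 12960 and 10522 CPM in control lots 1 and 2. The β-catCA lots averaged 4113 ± 6.85 CPM (SD, n = 2) and the control lots averaged 11741 ± 1724 CPM (SD, n = 2). The small SD of the β-catCA lots does not show close replicates, because 1 UMI stands for 124.5 CPM in lot 2 and that lot's own interval runs from 0.270% to 0.551%.

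By rank, gjc4b was the gene with the 28th most UMIs of 6412 detected in β-catCA lot 1 and the 24th of 2204 in β-catCA lot 2, against the 4th of 5950 in control lot 1 and the 4th of 5841 in control lot 2. A rank does not depend on a scaling factor. It depends on counting error, and the interval of gjc4b took in 5 other genes in β-catCA lot 1 and 25 in β-catCA lot 2, against 0 in control lot 1 and 1 in control lot 2. At least 24 genes in β-catCA lot 1 and 13 in β-catCA lot 2 had shares above the gjc4b interval, against 3 genes in each control lot. These intervals cover counting error within a library and not the spread between lots.

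**Figure D2:**
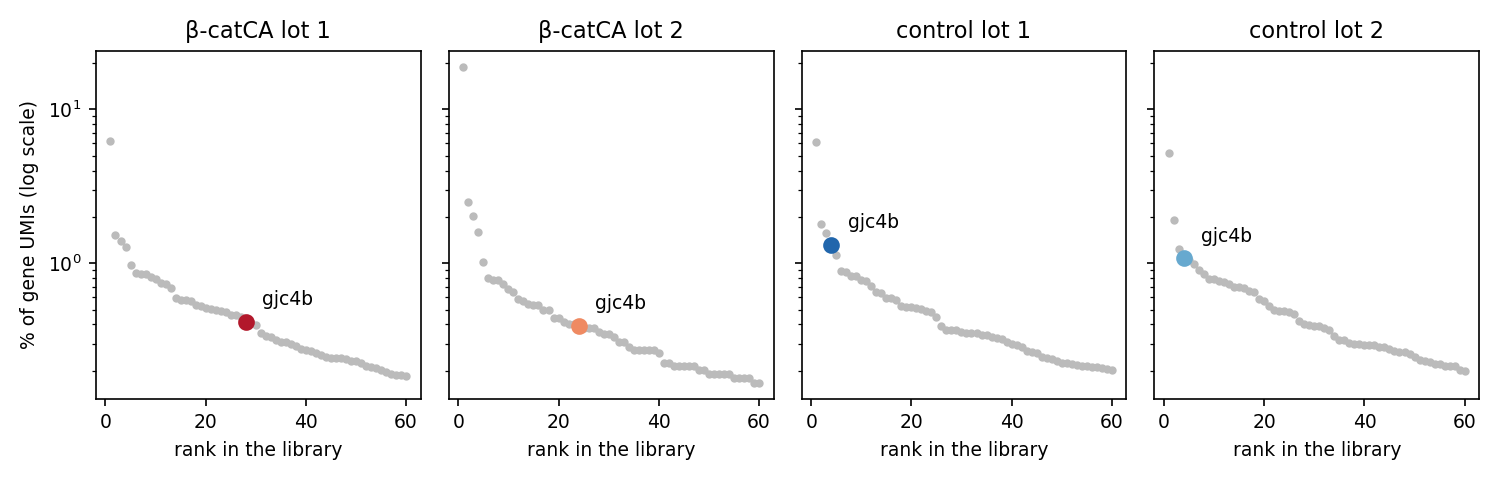
Percent of gene UMIs (log scale) of the 60 most abundant genes of each library, ordered by rank within that library, with gjc4b in colour and the other genes in grey. gjc4b sits at ranks 28 and 24 in β-catCA lots 1 and 2, and at rank 4 in both control lots.

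The 5 genes that followed gjc4b in the controls stayed within the first 17 ranks in all 4 libraries. Ordered by the summed shares of the control lots, gjc4b was 4th, behind ENSDARG00000080337, which has no symbol here, MT-ND4, a mitochondrially encoded subunit of respiratory complex I, and hnrnpa0l, an RNA-binding protein gene. Those next 5 were cirbpa, the gene of a cold-inducible RNA-binding protein, the small heat shock gene HSPB1, the RNA-binding protein gene KHSRP, the chromatin protein gene hmga1a and hnrnpa0b. cirbpa ranked 4 and 5 in β-catCA lots 1 and 2, and 5 and 5 in the control lots. KHSRP ranked 9 and 11 in the β-catCA lots, against 7 and 8 in the control lots, while hmga1a ranked 7 and 10 in the β-catCA lots, against 11 and 7 in the control lots. HSPB1 ranked 3 and 4 in the β-catCA lots, against 6 and 3 in the control lots. hnrnpa0b ranked 17 and 13 in the β-catCA lots, against 8 and 12 in the control lots. In control lot 2, gjc4b (1.08%) and cirbpa (1.05%) had overlapping intervals, so their order was not resolved there. In control lot 1 the intervals were apart, with gjc4b at 1.31% and cirbpa at 1.14% (1.05% to 1.22%).

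ENSDARG00000080337 took 6.22% and 19.0% of counted gene UMIs in β-catCA lots 1 and 2, against 6.16% and 5.17% in control lots 1 and 2. It thus lowers every other share in β-catCA lot 2. The row's counts were 4046 and 1594 UMIs in the β-catCA lots, against 3779 and 3066 in the control lots. With a UMI of 6 bases, counts per gene would have a ceiling, and 4046 would stand just below it. The UMI length is not known here. Whether this RNA itself was higher in β-catCA lot 2 was not tested. Without that row in the total, gjc4b was at 0.442% and 0.485% in the β-catCA lots, against 1.40% and 1.14% in the control lots. The ratio of the group means, β-catCA mosaic over control, was 0.338 with the row and 0.365 without it.

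The comparison addresses how cells sorted as GFP-negative differ when their embryo also holds β-catCA cells. gjc4b had a fitted log2 change of -1.51 (SE 0.25, derived from the test statistic) in edgeR, β-catCA mosaic minus control mosaic, which is 2.85-fold lower. Set library against library, its share was 3.17-fold lower in β-catCA lot 1 than in control lot 1 and 2.60-fold lower than in control lot 2. For β-catCA lot 2 the share was 3.34-fold lower than in control lot 1 and 2.75-fold lower than in control lot 2. All 4 pairs went the same way, which the choice of this gene already fixed. In cells pooled from a sort, fewer cells with gjc4b RNA and less gjc4b RNA per cell cannot be told apart.

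For scale, edgeR's quasi-likelihood test with Benjamini-Hochberg adjustment called 9 of 1071 tested genes, or 0.84%, and gjc4b was among them. This is how it was chosen and nothing more is read from it. Both β-catCA lots were below both control lots, in TMM-scaled CPM, for 253 of the 1071 genes, or 23.6%. Among the tested genes with at least 200 UMIs, a class that includes gjc4b, this held for 33.3%. The median fitted change of the tested genes was -0.03. In size, 16 tested genes had a lower fitted change than gjc4b, and these had between 27 and 162 UMIs over the 4 libraries. Of the 129 tested genes with at least 200 UMIs, 0 had a lower fitted change than gjc4b. The choice of gjc4b by its level and its lower counts largely fixed this place.

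In molecules, gjc4b was the row with the greatest drop in mean share of gene UMIs. Its mean share was 0.404% in the β-catCA mosaics, against 1.20% in the controls, a difference of -0.79 percentage points. The next rows were HSPA8 (ENSDARG00000068992), the gene of a constitutive Hsp70 chaperone, with a difference of -0.44 points (0.236% in the β-catCA mosaics, against 0.680% in the controls), and DDX5, an RNA helicase gene, with -0.25 points (0.296% in the β-catCA mosaics, against 0.547% in the controls). Leaving out the shallow β-catCA lot 2 gave gjc4b a difference of -0.78 points, again the greatest drop, followed by hnrnpa0l with -0.42 points. The choice of gjc4b by its level and its lower counts largely fixed its place in both orders. A difference in points also favours abundant rows.

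A ratio of 2 genes within a library needs no library total. gjc4b was set against each of the 30 other genes with the greatest summed control shares. The ratio was lower in both β-catCA lots than in both control lots for 29 of the 30 genes. The choice of gjc4b for its lower counts largely fixed this outcome. All 30 ratios also share the same numerator, so they are a description and no separate support. As geometric means of the lots of each group, the median ratio was 2.97-fold lower in the β-catCA mosaics. Against eef1a1l1, an elongation factor gene often used as a reference, there were 0.559 and 0.493 gjc4b UMIs per UMI in β-catCA lots 1 and 2, and 2.01 and 1.53 in control lots 1 and 2. Against the β-actin gene actb2 the ratios were 0.776 and 0.971 in the β-catCA lots, against 3.99 and 2.56 in the control lots. The exception was HSPA8, with 1.17 and 3.30 gjc4b UMIs per HSPA8 UMI in the β-catCA lots, against 2.19 and 1.42 in the control lots, where the groups overlapped. HSPA8 had 10 UMIs in β-catCA lot 2, and was itself called lower in the β-catCA mosaics (log2 change -1.27, SE 0.27, edgeR adjusted p = 0.013).

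**Figure D3:**
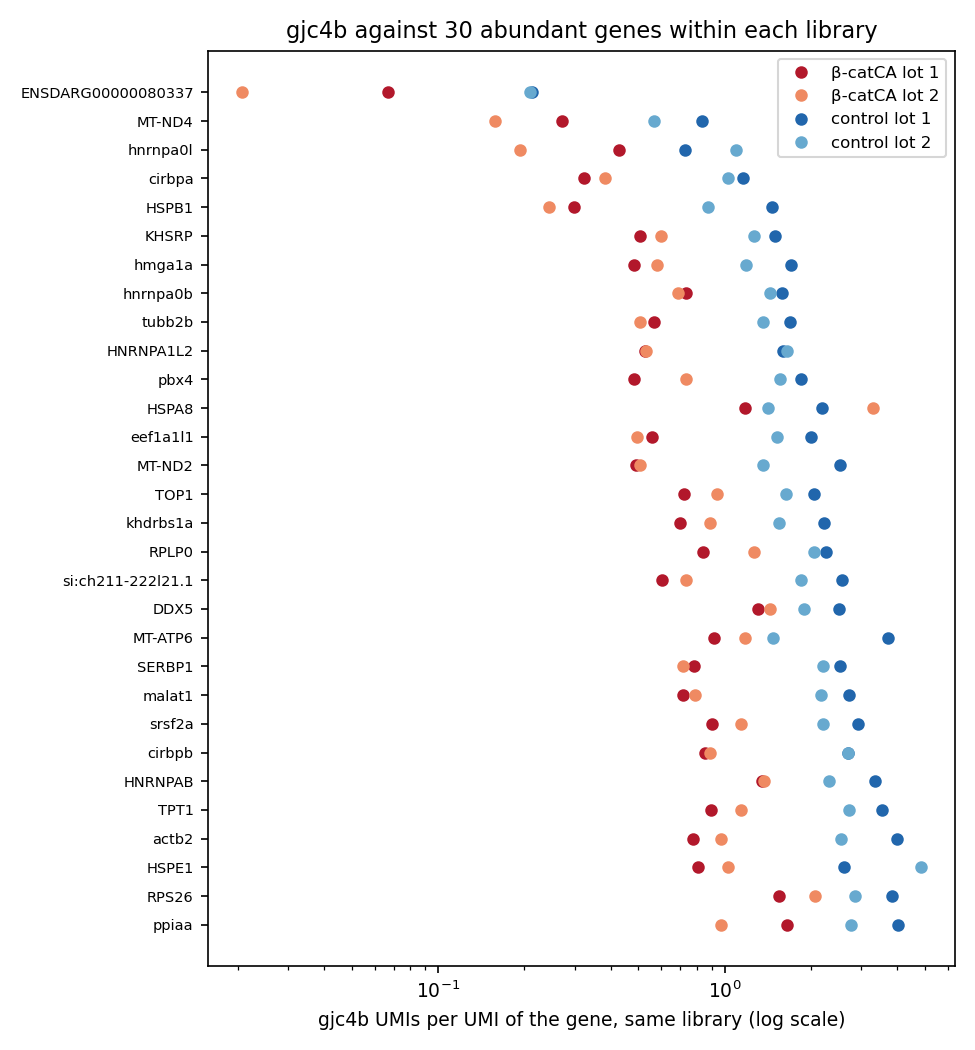
gjc4b UMIs divided by the UMIs of each of 30 other abundant genes in the same library (log scale), with 1 point per library and the genes ordered from the most abundant in the controls at the top. The β-catCA points lie left of both control points for 29 of the 30 genes, and HSPA8 is the exception.

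A wider set of genes as the denominator gave the same direction. Per 100 UMIs of the housekeeping list (17 rows), there were 16.6 and 16.0 gjc4b UMIs in β-catCA lots 1 and 2, against 57.6 and 42.1 in control lots 1 and 2. Per 100 UMIs of 83 ribosomal protein genes, there were 11.9 and 12.3 in the β-catCA lots, against 32.3 and 24.6 in the control lots. Ribosomal protein genes themselves summed to 34479 and 33484 CPM in the β-catCA lots, against 40073 and 42812 CPM in the control lots, so this denominator was also lower and the ratio of group means was 0.425. Over the 7 versions of the share tried, all with both β-catCA lots below both control lots, the ratio of the means ran from 0.301 to 0.425. The ratio of 0.301 came from counts corrected for molecules that share a UMI, which alters both gjc4b and the total, but not equally. In β-catCA lot 1 gjc4b went from 270 to 279 UMIs, while its share went from 0.415% to 0.348%, so the total rose more. The correction grows with a row's count, and ENSDARG00000080337 had 4046 UMIs in that lot. The choice of this gene had already largely fixed the direction.

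The genes with profiles most like that of gjc4b over the 4 libraries were found by the root mean square difference in log2 CPM (prior count 2) after each gene was centred on its own mean, among 128 other genes with at least 200 UMIs. The 8 closest were DDX39A (ENSDARG00000015111), an RNA helicase gene of mRNA export (0.21), SNRPC, a U1 snRNP subunit gene (0.24), the ribosomal protein genes RPS6 (0.31) and RPL6 (0.33), the mitochondrial chaperonin gene HSPD1 (0.36), DDX5 (0.37), TNRC6A, a gene of the microRNA silencing machinery (0.43), and marcksl1b, a gene of the MARCKS family (0.46). The median difference over the 128 genes was 0.74 and the greatest was 1.38. With 4 libraries in 2 groups, likeness mostly means a lower level in both β-catCA lots.

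DDX39A (ENSDARG00000015111) had 100 and 9 UMIs in β-catCA lots 1 and 2, against 209 and 174 in control lots 1 and 2. These were 1525 and 1120 CPM in the β-catCA lots, against 3365 and 2865 CPM in the control lots. A second row named DDX39A (ENSDARG00000006225) held 99 UMIs in β-catCA lot 1 and 8 in lot 2, against 58 and 69 in the control lots, with a fitted log2 change of 0.42. SNRPC had 671 and 747 CPM in the β-catCA lots, from 44 and 6 UMIs, and 1562 and 1449 CPM in the control lots. RPS6 had 884 and 996 CPM in the β-catCA lots, against 1803 and 2091 CPM in the control lots. In all 8 genes both β-catCA lots lay below both control lots, which their choice by likeness to gjc4b largely fixed. The same held for 33.3% of the tested genes with at least 200 UMIs. All 8 genes had a smaller fitted decrease than gjc4b, with log2 changes between -0.53 for marcksl1b and -1.13 for SNRPC and the first DDX39A row. The most abundant of them, DDX5, had 3157 and 2863 CPM in the β-catCA lots, against 5184 and 5549 CPM in the control lots, so all 8 stood below gjc4b in the controls.

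**Figure D4:**
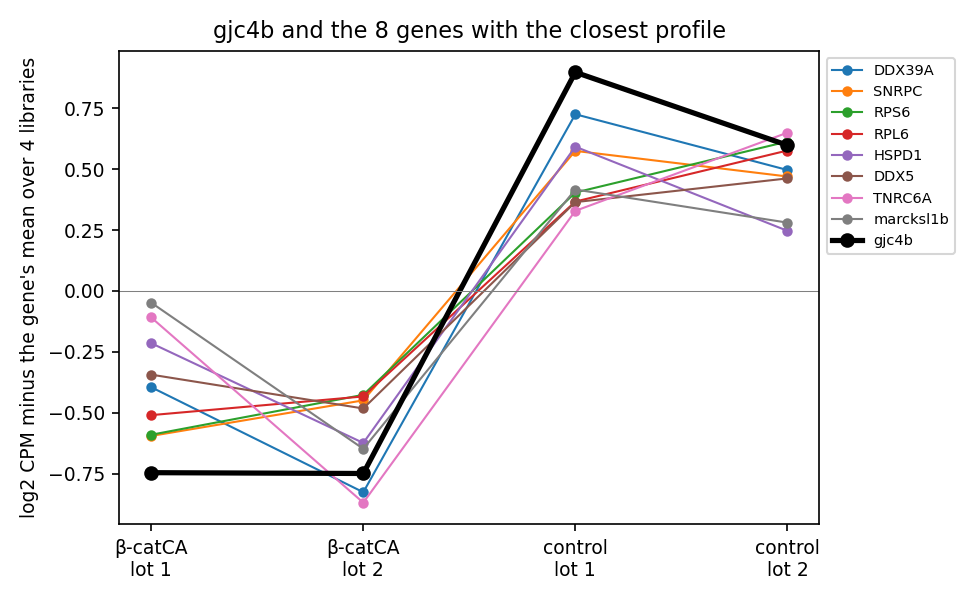
Log2 CPM minus each gene's mean over the 4 libraries, for gjc4b (black) and the 8 genes with the closest profile; lines join the libraries of 1 gene and mark no order in time. gjc4b lies at -0.75 and -0.75 in β-catCA lots 1 and 2, and at 0.90 and 0.60 in control lots 1 and 2.

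Genes whose products meet connexins in other settings were set beside gjc4b as a list of gap junction scaffolds and regulators. The list had 419 UMIs in all. It summed to 2470 and 3485 CPM in β-catCA lots 1 and 2, against 1868 and 1861 CPM in control lots 1 and 2. Of its 29 rows, 21 had a UMI, beside 8640 of all 32266 gene rows, and 3 passed the filter on low counts. Of these 3, 1 was called higher in the β-catCA mosaics by edgeR and 0 lower. It was ywhaqb, a gene of the 14-3-3 adaptor family, with 69 and 11 UMIs in β-catCA lots 1 and 2, against 29 and 22 in control lots 1 and 2 (log2 change 1.43, SE 0.37, edgeR adjusted p = 0.038). The called share over all genes, 0.84%, gives less than 1 call among 3 genes, and ywhaqb was known as a call before the list was drawn up. These ywhaqb UMIs were part of 162 and 28 UMIs of the list in the β-catCA lots, against 116 and 113 in the control lots. YES1, a Src-family kinase gene, had 290 and 373 CPM in the β-catCA lots, against 435 and 412 CPM in the control lots (log2 change -0.48, SE 0.45, edgeR adjusted p = 0.80). CALM2, a calmodulin gene, had 213 and 747 CPM in the β-catCA lots, against 499 and 379 CPM in the control lots, and the groups overlapped (log2 change -0.57, SE 0.49, edgeR adjusted p = 0.76). tjp1b, which encodes a ZO-1 scaffold of the junctional plaque, had 10 UMIs in β-catCA lot 1 and 3 in lot 2, against 6 and 5 in the control lots. Pannexins, channel proteins that resemble connexins in shape, had 2 UMIs in all on 4 rows, both in β-catCA lot 1.

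Genes of other cell junctions were set beside gjc4b. The 24 adherens junction and desmosome genes together had 264 and 24 UMIs in β-catCA lots 1 and 2, against 225 and 216 in control lots 1 and 2, and the 34 tight junction genes had 66 UMIs in all. Per 100 UMIs of the adherens junction and desmosome list there were 102 and 138 gjc4b UMIs in β-catCA lots 1 and 2, against 358 and 296 in control lots 1 and 2. The list itself summed to 4026 and 2987 CPM in the β-catCA lots, against 3622 and 3557 CPM in the control lots, and the groups overlapped. Of its 4 tested members edgeR called 0. They had a median log2 change of 0.15, beside -0.03 over all tested genes. The α-catenin gene ctnna1 had 71 UMIs in β-catCA lot 1 and 4 in lot 2, against 73 and 67 in the control lots (log2 change -0.25, SE 0.32, edgeR adjusted p = 0.87). CDH2, the N-cadherin gene, had 28 UMIs in β-catCA lot 1 and 2 in lot 2, against 12 and 21 in the control lots (log2 change 0.56, SE 0.47, edgeR adjusted p = 0.75).

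The tight junction genes summed to 305 and 498 CPM in the β-catCA lots, against 322 and 362 CPM in the control lots, with 0 members tested. The most abundant members were f11r.1 and JAM3, adhesion molecules of the JAM family, with 19 and 13 UMIs over the 4 libraries. A difference in tight junction genes was not detectable at this depth.

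Among the other 32 gap junction genes, 0 passed the filter on low counts. In edgeR without that filter the 2 with a UMI were tested and 0 were called, as were 0 of 8640 genes (0%), with 0 of the 2 and 220 of the 8640 genes at an unadjusted p under 0.05. DESeq2 also called 0 of them. In the other alternatives no other gap junction gene passed the filter, so 0 calls there followed from the filter. Whether another connexin differed between the groups was not detectable at this depth, since 3 UMIs correspond to 45.8 and 373 CPM in β-catCA lots 1 and 2, and to 48.3 and 49.4 CPM in control lots 1 and 2.

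Markers of particular cells of the gastrula were summed by list. The enveloping layer is the outer epithelium of the embryo. Of its 13 markers 10 had a UMI, and agr1, grhl3 and krt17 were at 0. They summed to 2150 and 3236 CPM in β-catCA lots 1 and 2, and to 1320 and 1004 CPM in control lots 1 and 2. Of its 2 tested members, 1 was called higher, beside 0.84% of all tested genes. It was the keratin gene krt8, which was also known as a call before the list was drawn up, with 79 and 13 UMIs in the β-catCA lots, against 35 and 27 in the control lots (edgeR adjusted p = 0.038). The other tested member, the keratin gene krt18a.1, was fitted at 0.77 in log2 (SE 0.43) and did not pass (edgeR adjusted p = 0.54). In edgeR without the filter, the E-cadherin gene cdh1 had a log2 change of -0.57 (SE 0.81) and krt4 of 0.0046 (SE 0.81), neither of them called. The dorsal forerunner and Kupffer's vesicle list, the cells in which gjc4b has a known role, had a UMI on 4 of 9 rows. The ciliary genes FOXJ1 and dnah9 were at 0, as were dand5, spaw and CFTR. The list summed to 1647 and 622 CPM in the β-catCA lots, where lot 2 rests on 5 UMIs, against 2013 and 2371 CPM in the control lots. tbx16 and tbxta, which are also genes of the wider mesoderm, supplied most of this sum, and sox32 and SOX17 had 12 and 8 UMIs over all libraries. Of its 2 tested members edgeR called 0. In the enveloping layer list, krt8 and krt18a.1 supplied most of the sum. There krt8 alone held 79 and 13 of 141 and 26 UMIs in the β-catCA lots, against 35 and 27 of 82 and 61 in the control lots. In both lists the summed levels of the groups did not overlap, and their part in the gjc4b difference was not tested. For single genes, both β-catCA lots were below both control lots in 23.6% of all tested genes.

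The remaining marker lists had groups that overlapped. Yolk syncytial layer markers, with 3 of 9 at a UMI and mxtx2 at 0, summed to 3995 and 5103 CPM in the β-catCA lots, against 4250 and 4001 CPM in the control lots. The apolipoprotein genes apoc1 and apoeb supplied most of this sum. Their fitted log2 changes had opposite signs, 0.55 (SE 0.27) for apoc1 and -0.52 (SE 0.28) for apoeb, and neither was called. Endoderm markers, with 8 of 8 rows at a UMI, summed to 656 and 747 CPM in the β-catCA lots, against 950 and 708 CPM in the control lots. FOXA2 and CXCR4 supplied most of this sum, and sox32 and SOX17 also stand in the Kupffer's vesicle list. Germ cell markers had 5 UMIs in β-catCA lot 1 and 0 in lot 2, against 1 and 4 in the control lots, with DDX4, the vasa gene, at 0.

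Genes next to gjc4b on its chromosome were read by name and order from RefSeq's table of the GRCz12tu assembly. Those with a row, lct and hdac4 on one side and slc4a3 and si:ch73-193i22.1 on the other, had 0 UMIs in all 4 libraries. Over all 32266 gene rows only 8640 had a UMI, so a count of 0 is common and does not show absence of RNA. These neighbours were looked up after the gjc4b values were known. The same table places 2 lncRNA genes, LOC141376207 and LOC110440050, across the gjc4b locus. Neither the labels nor the table tell whether the annotation used for counting held them or whether strand was used, so reads of gjc4b and of an overlapping gene cannot be told apart. The table is of another build than GRCz10, so no positions are given.

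The fitted change of gjc4b kept its direction in each of the 14 alternatives, which ran from -1.38 without control lot 1 to -1.80 without the filter on low counts. Without β-catCA lot 1 it was -1.53 and without β-catCA lot 2 it was -1.53. The choice of gjc4b for its lower counts largely fixed the direction, since all alternatives reuse these same libraries. Relative to the median of the genes of the main test, gjc4b was at -1.29 without β-catCA lot 1 and at -1.50 without β-catCA lot 2. That median itself was lower by 0.22 without β-catCA lot 1. Its call, by which it had been chosen, was lost without the filter and without control lot 1. With a UMI of 6 bases, distinct molecules of an abundant gene would sometimes share a UMI, and counts corrected for such collisions would be 279 and 33 in β-catCA lots 1 and 2, against 896 and 695 in control lots 1 and 2. The fitted log2 change would then be -1.60. The sources used here do not give the UMI length.

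**Figure D5:**
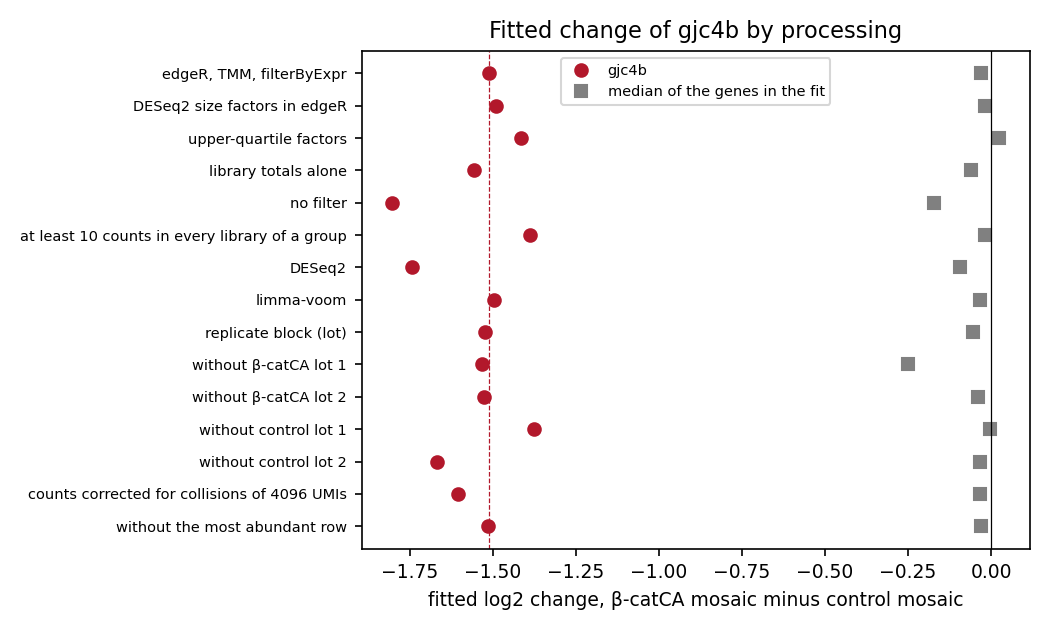
Fitted log2 change of gjc4b, β-catCA mosaic minus control mosaic, under the edgeR settings of the report (top) and 14 alternatives, with the median of the genes in the same fit as grey squares. All gjc4b values lie between -1.80 and -1.38, and the dashed line marks -1.51.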

How the data were processed

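The deposited table holds raw UMI counts, whole numbers that the authors did not normalize, in 1 column for each of the 4 libraries. Per the labels' protocols, TRIzol RNA went into CEL-Seq2 libraries. The submitters' processing notes name GRCz10, Bowtie2 2.3.1 and HTSeq 0.6.1. Their roles, the annotation release and how UMIs were collapsed are not stated in these sources. Of the table, 32266 rows were genes and 5 were classes of tags without a gene. The 5 rows held 52.4% and 58.1% of all counts in β-catCA lots 1 and 2, and 57.7% and 58.3% in control lots 1 and 2, and stayed out of library sizes and tests. Reads of overlapping genes or close paralogs may have been assigned to another gene or left uncounted.

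From these counts, genes were fitted with edgeR 4.0.16 in R 4.3.3, with TMM factors, filterByExpr (minimum count 10), robust quasi-likelihood tests, and Benjamini-Hochberg adjustment over all 1071 tested genes at 0.05, with group as the single term. Sparse genes were taken from an unfiltered fit. Each SE of a fitted change is the absolute log2 change divided by the square root of the test's F statistic. It is thus the test result in another form and no separate measure of the spread between lots. Limma 3.58.1 (voom) and DESeq2 1.42.0 were alternatives. The fit was tested on simulated counts with known changes. Shares carry 95% exact (Clopper-Pearson) intervals from SciPy 1.17.1, and a count of 0 allows 3 counts; both cover counting error only. With 2 libraries against 2, no single value carries a rank test. The symbol table named the genes.

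gjc4b, the gene lists and the alternatives were chosen with earlier results of these data known. Named genes were gjc4b; gap junction genes with a UMI, and relatives at 0; the 5 genes next above and below gjc4b by control share, where 3 stood above; the 8 closest profiles; and up to 4 members of each list by UMIs, of which some are not printed. Ratios to 30 abundant genes, chromosome neighbours and ranks of share differences were chosen after the values were seen. No sequence is shown, and 1 gene is not reported by name here.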

Additional observations from a re-analysis of the deposited data

Results flagged for a closer look

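Tags that found no alignment have a row of their own, and it took 35.8% of all counts of β-catCA lot 2, above β-catCA lot 1, at 19.9%, and above control lots 1 and 2, at 21.1% and 22.9%. Over all counts, those that are no genes included, gjc4b made up 0.198% and 0.164% in β-catCA lots 1 and 2, against 0.555% and 0.449% in control lots 1 and 2.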

How the results depend on the processing

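The fitted log2 change of gjc4b moved by more than the spread between lots in 2 of 14 alternatives, to -1.80 in edgeR without the filter and to -1.74 in DESeq2, where the genes of the main test also had a median that was lower by 0.19 and 0.23; relative to that median, gjc4b was at -1.58 and -1.49, beside -1.48 in the main fit. Without β-catCA lot 1 the median was lower by 0.22 and gjc4b was at -1.29 relative to it. Leaving out single libraries gave changes from -1.67 to -1.38. The number of called genes, 9, was 1 with upper-quartile factors, 2 with library totals alone, 0 without the filter, 2 when each library of a group had to reach 10 counts, 1 by DESeq2, 2 by limma-voom, 2 with counts corrected for collisions, and from 1 to 15 without single libraries; the cause was not tested. Library totals alone gave 0 higher and 2 lower calls, upper-quartile factors 0 and 1, and the main fit 3 and 6. With the lot number as a replicate block it was 2, and gjc4b was at -1.52. The lot deviations of the groups had a correlation of -0.0061 across tested genes. β-catCA lot 2 held 8403 gene UMIs, so its deviations carry much counting error. The correlation therefore cannot tell whether the lots are paired. Other gap junction genes had 0 calls in all alternatives. Outside edgeR without the filter and DESeq2 this was automatic, since they did not pass the filter. Of these genes, 0 had the 10 UMIs needed for a value of its own.

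Shares of gjc4b in β-catCA lots 1 and 2 and control lots 1 and 2 changed with the denominator. They were 0.460%, 0.512%, 1.45% and 1.19% without mitochondrially encoded genes and the most abundant row, 0.198%, 0.164%, 0.555% and 0.449% of all counts, 11.9%, 12.3%, 32.3% and 24.6% of ribosomal protein UMIs, and 16.6%, 16.0%, 57.6% and 42.1% of housekeeping UMIs. Corrected for collisions they were 0.348%, 0.374%, 1.30% and 1.10%. The depth of β-catCA lot 2, where gjc4b rests on 33 UMIs, limits the precision of its share and rank.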
